A study of Mus musculus with 7 samples.

Results

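The replication-dependent histone genes were followed across 7 RNA sequencing libraries of mouse whole thymus. They were chosen by name alone, as every gene whose symbol starts with Hist1h, Hist2h, Hist3h or Hist4h followed by a histone class, which gave 59 of the 16734 genes listed. By class they comprised 6 H1 genes, 13 H2A, 16 H2B, 11 H3 and 13 H4, and 2 of them were named as pseudogenes. By cluster, 48 lay in Hist1 on chromosome 13 (21807632 to 23856283), 7 in Hist2 on chromosome 3 (96023839 to 96082924), 3 in Hist3 on chromosome 11 (58762413 to 58770176) and 1 was Hist4h4 on chromosome 6 (build mm9). The GENCODE annotation of that build gave 55 of the 59 genes a single exon.

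Thymi came from mice of 4 weeks of age in 3 groups. Wild type C57BL/6 mice gave 3 libraries. Mice homozygous for an Ikaros mutation that removes the first DNA-binding zinc finger (ZnF1-/-) gave 2, and those lacking the fourth finger (ZnF4-/-) gave another 2. The labels give a strain background for the wild type group only, name the mutations as strains and name no promoter or Cre that would limit them to a cell type. Replicate 1 of each genotype was read as 76 bp on an Illumina GAIIx and the rest (wild type 2A and 2B, ZnF1-/- 2, ZnF4-/- 2) as 50 bp on an Illumina HiSeq. These sets are called the 76 bp and the 50 bp libraries here. The molecule was labelled as polyadenylated RNA, and nothing in the labels says that replicates were separate animals, so p-values measure the spread between these libraries.

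Replication-dependent histone genes supply the nucleosome core proteins H2A, H2B, H3 and H4 and the linker protein H1 while DNA is copied, and their messages accumulate in S phase. Unlike other animal messages, most of theirs end just after a short RNA hairpin, the histone stem-loop, instead of in a poly(A) tail. The stem-loop is bound by Slbp, the stem-loop binding protein, and some of these genes are also known to give longer messages with poly(A) tails. The thymus holds many dividing T cell precursors, and Ikaros, the product of Ikzf1, binds DNA and controls genes in those cells.

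The stem-loop is the feature that sets these messages apart from those a poly(A) selection keeps, so a few are printed here. A search for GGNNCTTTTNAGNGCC on the coding strand within 100 bases after the stop codon found it in 50 of the 57 members with a coding model, against 61 of all 21805 protein-coding genes (0.28%). The sequences below were read from mm9 in the direction of the gene, as DNA, with the hairpin core in capitals.
Hist2h4: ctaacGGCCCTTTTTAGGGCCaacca
Hist1h4d: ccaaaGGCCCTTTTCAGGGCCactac
Hist1h2bn: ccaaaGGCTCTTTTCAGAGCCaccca
Hist1h2bb: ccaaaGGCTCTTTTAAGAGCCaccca
Hist1h1c: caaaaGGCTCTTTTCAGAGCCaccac
Hist3h2a: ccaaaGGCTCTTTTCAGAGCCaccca
The H4 genes differed from the other classes in the hairpin itself. In the gene models matched to the listed lengths, all 10 H4 stem-loops began with GGCC and all 39 of the other classes began with GGCT. The most frequent core, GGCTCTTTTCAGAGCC, was carried by 30 members, with Hist1h2bn and Hist3h2a sharing the same 26 bases. Hist2h4 lies on the minus strand at chr3:96066857-96066882 and Hist1h4d on the plus strand at chr13:23673814-23673839. Hist1h2bn lies on the plus strand at chr13:21846397-21846422, Hist1h2bb at chr13:23839067-23839092 and Hist1h1c at chr13:23831376-23831401, both plus, and Hist3h2a on the plus strand at chr11:58768669-58768694.

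The summed level of the 59 genes was several times higher in the 76 bp libraries, whatever the genotype. Values are RPKM, the reads over a gene's exons per kilobase of exon, scaled to the mapped reads of the library. At 76 bp the sum was 328.7 RPKM for wild type, 522.0 for ZnF1-/- and 462.6 for ZnF4-/-. At 50 bp it was 143.4 RPKM for wild type 2A, 137.8 for wild type 2B, 120.6 for ZnF1-/- and 102.7 for ZnF4-/-. All 76 bp libraries thus lay above all 50 bp libraries, and wild type was the lowest of the first and the highest of the second, while ZnF1-/- was above ZnF4-/- in both. The means were 438 ± 99.0 RPKM (SD, n = 3) and 126 ± 18.4 RPKM (SD, n = 4), a ratio of 3.47, or 3.90 after the libraries were scaled to a common median. As a share of mapped reads the members took 0.0190% to 0.0345% in the 76 bp libraries and 0.00771% to 0.0102% in the 50 bp libraries.

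**Figure D1:**
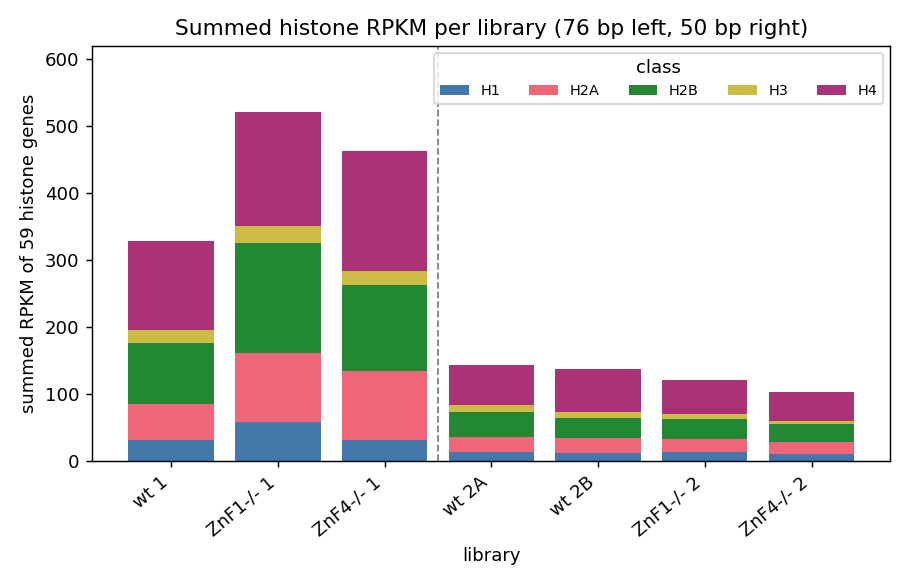
Stacked bars give the summed RPKM of the 59 histone genes in each of the 7 libraries, split by histone class, with the 76 bp libraries left of the dashed line. The 3 libraries on the left reach 328.7 to 522.0 RPKM and the 4 on the right 102.7 to 143.4 RPKM.

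Hist2h4, which encodes core histone H4, was the member of highest level in every library and took 12.3% to 16.4% of the sum in the 76 bp libraries and 30.9% to 38.3% in the 50 bp libraries. Without it the ratio was 4.46. By class, the mean H2A sum was 86.3 ± 28.7 RPKM (SD, n = 3) in the 76 bp libraries and 19.9 ± 2.25 (SD, n = 4) in the 50 bp libraries, and the H2B sum was 128 ± 36.9 against 31.3 ± 4.56. The H4 sum was 161 ± 23.8 against 54.1 ± 9.57, the H1 sum 40.7 ± 15.9 against 12.7 ± 1.30 and the H3 sum 22.1 ± 3.16 against 8.19 ± 2.73. In each of the 7 libraries H3 took the smallest part of the sum, at 4.73% to 8.19%, and H4 the largest, at 32.6% to 46.6%.

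The libraries differed in more than read length. Xist, the RNA of the inactive X chromosome, was found at 90.6 to 109 RPKM with 76 bp reads but at 0.01 to 0.03 RPKM with 50 bp reads, while the Y-linked Ddx3y was at 0.00 to 0.01 and 13.2 to 17.4 RPKM. Sex, read length and instrument therefore cannot be told apart in any difference between the sets. Both sets hold all 3 genotypes, with 1 wild type library at 76 bp and 2 at 50 bp. Ikzf1 itself was at 141.7 to 257.0 RPKM in all libraries, which does not check the loss of a single finger. Summed thymocyte markers (13 genes, such as Cd3e and Rag1) were at 4925 to 6954 RPKM, against 15.0 to 36.4 for 7 B cell markers, 20.0 to 116 for 8 erythroid and 34.8 to 47.3 for 12 stromal markers. Summed myeloid markers (10 genes) were at 615 RPKM in ZnF4-/- replicate 1, led by S100a8 and S100a9, and at 87.8 to 188 elsewhere. The depth was not given. Whole-read steps of the values gave estimates for the 76 bp libraries of about 20160000 mapped reads (wild type), 14320000 (ZnF1-/-) and 6310000 (ZnF4-/-), with 41.6%, 50.2% and 67.3% of low values on the steps against 11.4% to 12.6% by chance. At those depths the 59 genes held about 3823, 4941 and 1587 reads, and no depth could be set for the 50 bp libraries.

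**Figure D2:**
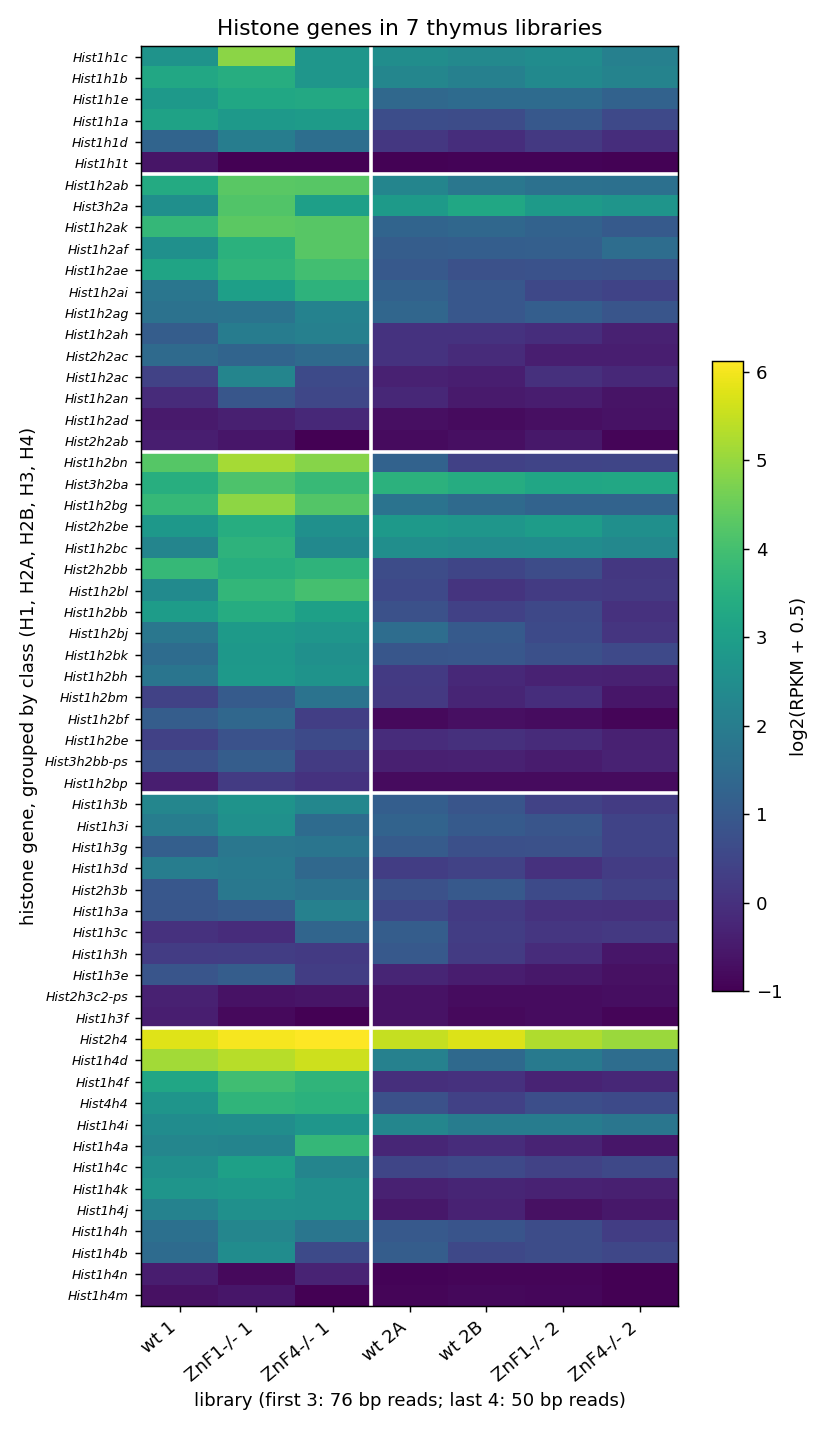
Each row is a histone gene, grouped by class and ordered by mean level within it, each column a library, and the colour is log2(RPKM + 0.5). The 3 columns of 76 bp libraries are brighter for most rows, while Hist2h4, Hist3h2ba, Hist2h2be and Hist1h2bc change little across the white line.

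Gene by gene, 43 of the 59 members reached a mean of 1 RPKM over the 7 libraries and were tested, and 15 of these did so only through the 76 bp libraries. Replicate 1 against the others, with genotype in the model, gave 38 members that rose in the 76 bp libraries and 0 that fell (limma on log2(RPKM + 0.5), Benjamini-Hochberg adjusted p under 0.05 over 10498 genes). Of all tested genes 41.3% passed in either direction, 6.74% as higher and 34.6% as lower. The median log2 difference was 1.70 over the 43 members and -0.20 over all genes. Scaling the libraries to a common median moved these to 1.87 and -0.03 and gave 40 members that rose, where 12% of all genes passed as higher (1258 higher and 1470 lower, against 708 and 3631 without scaling). Of the 28 members with a mean of at least 1 RPKM in the 50 bp libraries as well, 23 rose. Of the 15 members that passed the filter only through the 76 bp libraries, 5 were H4, 4 H2B, 3 H2A, 2 H3 and 1 H1 genes. Without the filter 41 of 59 rose and 0 fell, at a median of 1.23, where 4.4% of all 16660 genes above 0 passed as higher. By class these were 10 of 13 H4, 12 of 16 H2B, 10 of 13 H2A, 5 of 11 H3 and 4 of 6 H1 members. In 46 of the 59 members all 76 bp libraries lay above all 50 bp libraries, as they did in 6.36% of those 16660 genes.

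**Figure D3:**
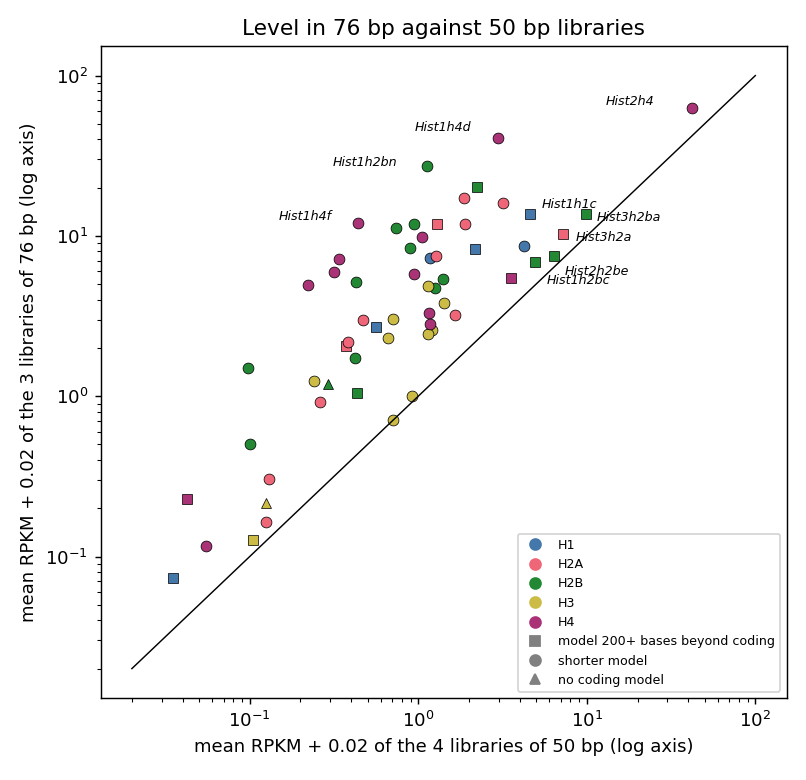
Each point is a histone gene at its mean RPKM in the 4 libraries of 50 bp (x) and the 3 of 76 bp (y), both raised by 0.02 and on log axes, with the line of equality. Colour gives the class and shape the length of the listed gene model beyond its coding part. All 59 points lie on or above the line, and Hist1h4f, Hist1h4d and Hist1h2bn lie farthest from it among those named.

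Among the H4 genes, 10 of 11 tested members rose, and 10 of all 13 without the filter, where 6.74% and 4.4% of all genes passed as higher. Of the 11, 5 passed the filter only through the 76 bp libraries, Hist1h4f, Hist1h4k and Hist1h4j among them. Hist2h4 was at 53.80, 64.37 and 69.24 RPKM in the 76 bp libraries of wild type, ZnF1-/- and ZnF4-/-, and at 44.35, 52.83, 38.58 and 32.48 RPKM in the 50 bp libraries of wild type 2A, wild type 2B, ZnF1-/- and ZnF4-/-. The sets did not overlap, but wild type replicate 1 stood only just above wild type 2B. Its log2 difference was 0.60 ± 0.16 (SE, limma adjusted p = 0.0217), and the call was lost without the filter (adjusted p = 0.0687) and without either ZnF1-/- library (adjusted p = 0.0898 and 0.0899). Hist1h4d, in the same order of libraries, was at 34.85, 40.25 and 47.03 RPKM against 3.87, 2.20, 3.28 and 2.41 RPKM. Here every 76 bp library exceeded every 50 bp library many times over, and the log2 difference was 3.58 ± 0.19 (SE, limma adjusted p = 3.07e-05). Hist1h4f was at 8.76, 14.98 and 12.19 RPKM against 0.47, 0.52, 0.32 and 0.37 RPKM. That set it apart by 3.72 ± 0.19 (SE, limma adjusted p = 2.78e-05). Hist1h4k was at 6.04, 6.41 and 5.32 RPKM against 0.28, 0.33, 0.30 and 0.27 RPKM (log2 difference 3.02). Hist1h4j showed the same separation, at 3.95 to 5.46 against 0.13 to 0.30 RPKM. Hist1h4b was the H4 gene that did not pass, at a log2 difference of 0.84 (limma adjusted p = 0.0512). Its exons overlap those of 4930558J22Rik in the GENCODE annotation.

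Among the H2B genes, 8 of 11 tested members rose, and 12 of all 16 without the filter, where 6.74% and 4.4% of all genes passed as higher. Of the 11, 4 passed the filter only through the 76 bp libraries, Hist2h2bb and Hist1h2bb among them. Hist1h2bn was at 18.57, 35.64 and 27.68 RPKM in the 76 bp libraries of wild type, ZnF1-/- and ZnF4-/-, and at 1.85, 0.79, 0.88 and 0.90 RPKM in the 50 bp libraries of wild type 2A, wild type 2B, ZnF1-/- and ZnF4-/-. The log2 difference of 4.09 ± 0.27 (SE, limma adjusted p = 0.0001) was the highest of all tested members. Hist1h2bg, in the same order, was at 13.05, 29.77 and 17.98 RPKM against 2.80, 2.24, 1.92 and 1.93 RPKM, a log2 difference of 2.84. Hist2h2bb was at 13.22, 10.63 and 11.89 RPKM against 1.09, 0.91, 1.07 and 0.61 RPKM, a log2 difference of 3.17, and Hist1h2bb at 7.20 to 10.16 against 0.52 to 1.20 RPKM. Hist2h2bb was one of few tested members in which wild type was the highest of the 76 bp libraries. The 3 H2B genes that did not pass were at like levels in both sets. Hist3h2ba was at 10.47, 16.97 and 13.54 RPKM against 11.55, 10.08, 8.78 and 9.11 RPKM (log2 difference 0.42 ± 0.17, limma adjusted p = 0.0757). Hist2h2be was at 6.43, 10.35 and 5.49 RPKM against 6.70, 6.16, 7.21 and 5.34 RPKM (0.16 ± 0.12, limma adjusted p = 0.301). Hist1h2bc was at 4.19, 11.64 and 4.69 RPKM against 5.25, 4.92, 5.06 and 4.53 RPKM (0.25 ± 0.23, limma adjusted p = 0.397), so that only its ZnF1-/- replicate 1 value stood above the 50 bp range.

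Among the H2A genes, 9 of 10 tested members rose, and 10 of all 13 without the filter, where 6.74% and 4.4% of all genes passed as higher. Of the 10, 3 passed the filter only through the 76 bp libraries, Hist1h2ac and Hist2h2ac among them. Hist1h2ak was at 13.02, 19.67 and 18.89 RPKM in the 76 bp libraries of wild type, ZnF1-/- and ZnF4-/-, and at 1.94, 2.08, 1.88 and 1.54 RPKM in the 50 bp libraries of wild type 2A, wild type 2B, ZnF1-/- and ZnF4-/-. Its log2 difference was 2.87 ± 0.16 (SE, limma adjusted p = 4.07e-05). Hist1h2ae, at 8.38 to 15.08 against 1.20 to 1.48 RPKM, and Hist1h2ab, at 9.70 to 19.35 against 2.62 to 4.21 RPKM, were likewise separated without overlap. Hist3h2a was the exception, at 5.38, 17.89 and 7.57 RPKM against 6.94, 9.06, 6.82 and 6.01 RPKM (log2 difference 0.28 ± 0.29, limma adjusted p = 0.458). Its wild type 76 bp value was the lowest of the 7. Its exons overlap those of Trim17 in the GENCODE annotation, and without strand in the counts reads of both genes cannot be told apart. Near the filter stood Hist1h2ac, tested at a mean of 1.07 RPKM, and Hist2h2ac, at 1.13 RPKM, and just below it Hist1h2bm at 0.969 and the H3 gene Hist1h3c at 0.930 RPKM.

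Among the H3 genes all 6 tested members rose, and 5 of all 11 without the filter. Of the 6, 2 passed the filter only through the 76 bp libraries. Over all members of a class, without the filter, the median log2 difference was 0.82 for H3, 1.28 for H1, 1.58 for H2B, 1.68 for H2A and 2.10 for H4, and differences between classes were not tested. Hist1h3b was at 4.36, 5.87 and 4.40 RPKM in the 76 bp libraries of wild type, ZnF1-/- and ZnF4-/-, and at 1.67, 1.34, 0.83 and 0.68 RPKM in the 50 bp libraries of wild type 2A, wild type 2B, ZnF1-/- and ZnF4-/- (log2 difference 1.81 ± 0.20, limma adjusted p = 0.00122). Hist1h3i was at 3.59, 5.50 and 2.30 RPKM against 1.93, 1.51, 1.35 and 0.85 RPKM, a log2 difference of 1.18. In the 50 bp libraries both mutant values of these 2 genes were below both wild type values. Hist1h3g, at 1.71 to 3.07 against 0.86 to 1.57 RPKM, had the smallest difference of the tested H3 genes named (0.82 ± 0.22, limma adjusted p = 0.0191). Its call was lost without the filter (limma adjusted p = 0.0619) and without wild type 2B or either ZnF1-/- library (limma adjusted p = 0.0513 to 0.0848). Without the filter Hist1h3c and Hist1h3f differed by 0.01 and 0.08. Hist1h3f, below the filter, stayed at 0.00 to 0.25 RPKM in all libraries.

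Among the H1 genes, which encode the linker histones that bind DNA between nucleosomes, all 5 tested members rose, and 4 of all 6 without the filter. Of the 5, Hist1h1d passed the filter only through the 76 bp libraries. Hist1h1a was at 8.16, 6.79 and 6.98 RPKM in the 76 bp libraries of wild type, ZnF1-/- and ZnF4-/-, and at 1.10, 1.08, 1.43 and 1.00 RPKM in the 50 bp libraries of wild type 2A, wild type 2B, ZnF1-/- and ZnF4-/- (log2 difference 2.25 ± 0.13, limma adjusted p = 5.09e-05). Hist1h1b was at 9.20, 10.36 and 6.22 RPKM against 4.31, 3.80, 4.75 and 4.01 RPKM (0.92 ± 0.12, limma adjusted p = 0.00259). Hist1h1e, at 6.62 to 9.27 against 1.86 to 2.32 RPKM, and Hist1h1d, at 1.97 to 3.58 against 0.46 to 0.64 RPKM, lay between them, with log2 differences of 1.69 and 1.55. Hist1h1c was at 5.78, 29.26 and 6.19 RPKM against 5.09, 4.58, 4.98 and 3.79 RPKM, so that its rise (1.02 ± 0.35, limma adjusted p = 0.0468) rested on ZnF1-/- replicate 1. Without that library the difference was 0.41 and did not pass (adjusted p = 0.0823), and the call was lost in 8 of 15 settings in all (adjusted p = 0.0569 to 0.132), no filter included. Hist1h1t, known as the testis-specific H1, was at 0.00 to 0.16 RPKM and was not tested.

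The members that differed little between the sets mostly shared a long gene model. The listed exon length exceeded the coding length by 200 bases or more in 15 members, a division chosen after the values were seen and given with no test. Of these 11 were tested, 7 rose and the median log2 difference was 1.02. Among 42 members with shorter models 32 were tested, 31 rose and the median was 2.04, where 6.74% of all tested genes passed as higher. Some members passed the filter only through the 76 bp libraries. Without the filter 8 of the 15 and 32 of the 42 rose, at medians of 0.58 and 1.69, where 4.4% of all genes passed as higher. Hist2h2be, with 2238 bases beyond its coding part, Hist3h2a, with 1598, Hist1h2bc, with 349, and Hist3h2ba, with 240, were the tested long-model members that did not pass. Across the 43 tested members the difference between the sets fell with the length beyond the coding part (Spearman rho = -0.456, Pearson r = -0.365). That is a description over genes that share libraries and sequences. It covers 15 members that passed the filter only through the 76 bp libraries, and leaves out those below it. The polyadenylation signal AATAAA stood in the last 50 bases of the matched GENCODE model in 10 members. Of these 8 were tested, 5 rose and the median was 0.81, against 33 of 35 and 1.78 in the rest. Without the filter 4 of the 10 rose, at a median of 0.65, against 37 of 49 and 1.45. Of the tested members with a stem-loop in the matched model 34 of 37 rose, at a median of 1.70. Of those without a match 4 of 6 rose, at 1.89. Without the filter these were 36 of 49 and 4 of 8, at medians of 1.45 and 0.83.

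Many histone genes are near copies of one another, so the share of each matched GENCODE model that is unique in mm9 was measured at both read lengths. The matched model can differ from the listed model used for the RPKM. Hist2h2bb had 1511 bases against 494 listed and Hist2h4 had 1608 against 349. The median over the 59 members was 56.2% of 50-base and 61.9% of 76-base windows. Hist1h2bn was among the least unique, at 13.6% and 28.4%, and how reads that match several copies were counted was not given in the sources used here. In 5 members, Hist1h1a, Hist1h1b, Hist1h1t, Hist4h4 and Hist2h2bb, every 50-base window was unique. All 4 of these that were tested rose, at a median log2 difference of 2.44, where 6.74% of all tested genes passed as higher. Of the 4, Hist2h2bb passed the filter only through the 76 bp libraries. Without the filter 4 of the 5 rose, at a median of 2.25, where 4.4% of all genes passed as higher. Hist4h4, an H4 gene in this set, was at 6.12, 12.26 and 11.26 RPKM against 1.19, 0.81, 1.14 and 1.01 RPKM. Across the 43 tested members the difference between the sets had a Spearman rho of -0.173 with the unique share at 50 bases. With the gain in that share from 50 to 76 bases it was 0.343. These values too cover 15 members that passed the filter only through the 76 bp libraries.

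Without a block for the replicate number, 0 members passed in each of the 3 genotype comparisons. The comparisons ask what each Ikaros zinc finger contributes to gene control in the thymus, and in bulk tissue fewer cells of a type and less RNA per cell cannot be told apart. In ZnF1-/- against wild type 0 of the 43 tested members passed (limma, 0 at an unadjusted p under 0.05), where 0.0857% of all genes passed. The median log2 difference was 0.52 over the members and -0.02 over all genes. In ZnF4-/- against wild type 0 passed (0 unadjusted), where 2.54% of all genes passed, and the medians were 0.26 and -0.05. In ZnF4-/- against ZnF1-/- 0 passed (1 unadjusted), where 2.34% of all genes passed, and the medians were -0.15 and -0.03. These comparisons share libraries, and wild type has 2 of its 3 libraries in the 50 bp set where each mutant has 1 of 2, so part of the difference between the sets enters the values against wild type. With the replicate number as a block the medians were 0.17, -0.01 and -0.15, with 3, 2 and 7 members at an unadjusted p under 0.05, and 0.876%, 8.22% and 7.29% of all genes passed.

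With that block 1 member passed in 1 comparison. Hist2h2be, an H2B gene, was at 6.43, 6.70 and 6.16 RPKM in wild type, at 10.35 and 7.21 in ZnF1-/- and at 5.49 and 5.34 in ZnF4-/-, with replicate 1 first in each. Both ZnF1-/- values were above, and both ZnF4-/- values below, all others. It fell by 0.63 ± 0.15 (SE) on the log2 scale in ZnF4-/- against ZnF1-/- (limma adjusted p = 0.0456 with the block, 0.224 without), where 2.1% of all genes passed as lower. Its fall was 0.87 in the blocked fit without ZnF1-/- replicate 2, and the log2 difference ran from -0.88 to -0.38 over the alternative settings. Without the block it did not pass with no filter, median scaling or quantile normalization (limma adjusted p = 0.189, 0.303 and 0.228). The lowest adjusted p of the other blocked comparisons was 0.307 for Hist1h2ac in ZnF1-/- and 0.0660 for Hist1h2af in ZnF4-/-, both against wild type. Hist1h2af was at 5.41, 1.64 and 1.67 RPKM in wild type, 11.32 and 1.75 in ZnF1-/- and 18.92 and 2.43 in ZnF4-/-, so that ZnF4-/- was the highest of both sets.

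For each mutant taken alone, most members were above wild type at 76 bp and below the mean of wild type at 50 bp. Among the 76 bp libraries, with 1 library a genotype and hence no test, 38 of the 43 tested members were higher in ZnF1-/- than in wild type and 33 were higher in ZnF4-/-. The median log2 differences were 0.65 and 0.43, against 0.03 and 0.05 over all tested genes. Among the 50 bp libraries, set against the mean of both wild type libraries, 32 members were lower in ZnF1-/- and 39 lower in ZnF4-/-. The medians there were -0.14 and -0.31, against 0.01 and -0.07 over all genes, beside 0.17 between wild type 2A and 2B (0.09 over all genes). For 29 members ZnF1-/- was above wild type at 76 bp and below it at 50 bp, and for 30 members ZnF4-/- was. The H1 genes differed for ZnF1-/-, where all 5 tested were above the mean of wild type at 50 bp, by 0.04 to 0.28. Hist1h1c, at 4.98 RPKM there, was still below wild type 2A (5.09). At 76 bp 4 of the 5 were higher in ZnF1-/- than in wild type and 1 was lower. In ZnF4-/- 3 of the 5 were higher at 76 bp and all 5 were lower at 50 bp.

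**Figure D4:**
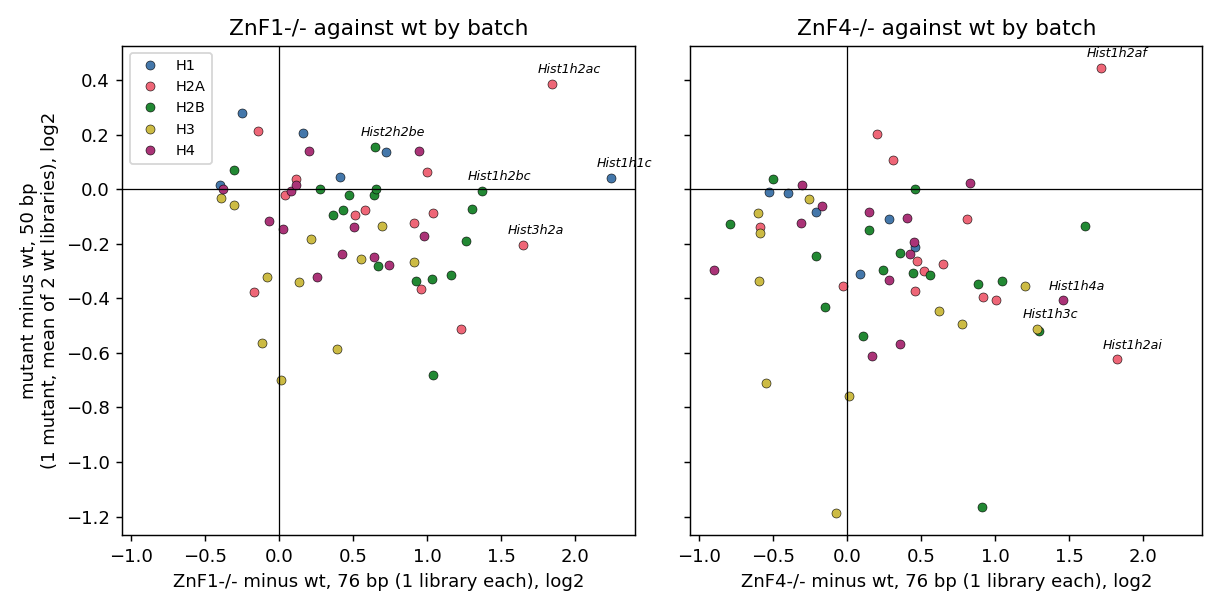
Each point is a histone gene, with its log2 difference between mutant and wild type among the 76 bp libraries (x) and among the 50 bp libraries (y), for ZnF1-/- (left) and ZnF4-/- (right). Most points lie to the right of 0 and below 0, and Hist1h1c lies farthest right in ZnF1-/-, at 2.25.

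Wild type replicate 1 was the lowest of the 76 bp libraries in 32 of the 43 tested members (74.4%, against 39.5% of all tested genes). ZnF1-/- replicate 1 was the highest of them in 27 (62.8%, against 31.8%), and ZnF4-/- replicate 2 was the lowest of the 50 bp libraries in 27 (62.8%, against 45.6%). ZnF1-/- replicate 2 was below both wild type libraries of 50 bp in 23 (53.5%, against 30.2%). The order of genotypes thus depended on the set of libraries, and the lowest library in each was of another genotype.

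ZnF1-/- replicate 1 stood apart in a few members with long models, chosen here after their values were seen. Hist1h1c was at 29.26 RPKM there against 3.79 to 6.19 RPKM elsewhere, and Hist3h2a at 17.89 against 5.38 to 9.06 RPKM. Hist1h2bc was at 11.64 RPKM against 4.19 to 5.25. Its divergent neighbour Hist1h2ac, which starts 250 bases away on the opposite strand, was at 4.24 against 0.25 to 1.02 RPKM. In the GENCODE annotation the exons of Hist1h2ac overlap a 5S_rRNA gene and those of Hist3h2a overlap Trim17. ZnF1-/- replicate 1 also held Jun at 16.09 RPKM against 1.29 to 4.03 and Dusp1 at 22.36 against 7.17 to 10.80 RPKM. Both belong to a list of 15 stress and immediate-early genes and were picked after their values were seen. That list summed to 254.7 RPKM there, against 179.3 and 208.9 in the other 76 bp libraries and 285.4 to 347.6 at 50 bp. Of its 11 tested genes 0 passed in ZnF1-/- against wild type, with or without the block. Whether the change in Jun and Dusp1 has a part in these histone values was not tested.

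Other RNAs that are mostly made without poly(A) tails were also higher in the 76 bp libraries. Of 93 tested (113 listed, most of them small nucleolar RNA genes, which lie in introns of host genes) 37 rose and 4 fell, at a median of 0.52, beside the 6.74% and 34.6% of all genes. Rmrp, the RNA of the RNase MRP complex, was at 143.84, 197.70 and 332.20 RPKM in the 76 bp libraries of wild type, ZnF1-/- and ZnF4-/-, and at 13.38, 12.29, 10.42 and 11.88 RPKM in the 50 bp libraries of wild type 2A, wild type 2B, ZnF1-/- and ZnF4-/-. Its log2 difference of 4.05 was close to that of Hist1h2bn. Snord15a differed by 4.51, the RNA of the minor spliceosome Rnu11 by 2.70 and the nuclear RNA Malat1 by 0.89. Between genotypes 0 of these 93 passed in any unblocked comparison. With the block 0 passed in ZnF1-/- and 4 in ZnF4-/- against wild type (1 rose and 3 fell) and 5 between the mutants (2 rose and 3 fell), where 0.876%, 8.22% and 7.29% of all genes passed.

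Genes whose products work with these histones had medians below 0 in the same comparison, as all tested genes did (-0.20). Scaling to a common median moved all genes to -0.03, so the counts are given on both scales. Of 10 tested replacement histones, which are made with poly(A) tails outside S phase too, 3 rose in the 76 bp libraries and 4 fell (3 and 3 scaled), at a median of -0.35. The H3.3 gene H3f3a rose by 2.79 and the H2A.Z gene H2afz by 1.44, while H2afv fell by 0.80 and H2afj fell by 0.85, and these 4 calls held on the scaled values. Of 20 factors of histone message synthesis and processing 1 rose, Slbp by 0.34, and 8 fell (1 and 4 scaled), at a median of -0.21. Of 16 histone chaperones 0 rose and 6 fell (0 and 3 scaled), at a median of -0.20. For 32 S phase genes the balance turned with the scale, from 5 that rose and 10 that fell to 10 and 5, and the median from -0.09 to 0.08. Pcna, the sliding clamp of DNA polymerase, was the S phase gene of lowest p, at 23.9 to 36.8 against 14.1 to 21.9 RPKM. The 19 mitosis genes turned likewise, from 3 that rose and 4 that fell to 7 and 1 (median -0.10 and 0.08). Of 11 stress and immediate-early genes 1 rose and 5 fell (1 and 4 scaled), at a median of -0.44.

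**Figure D5:**
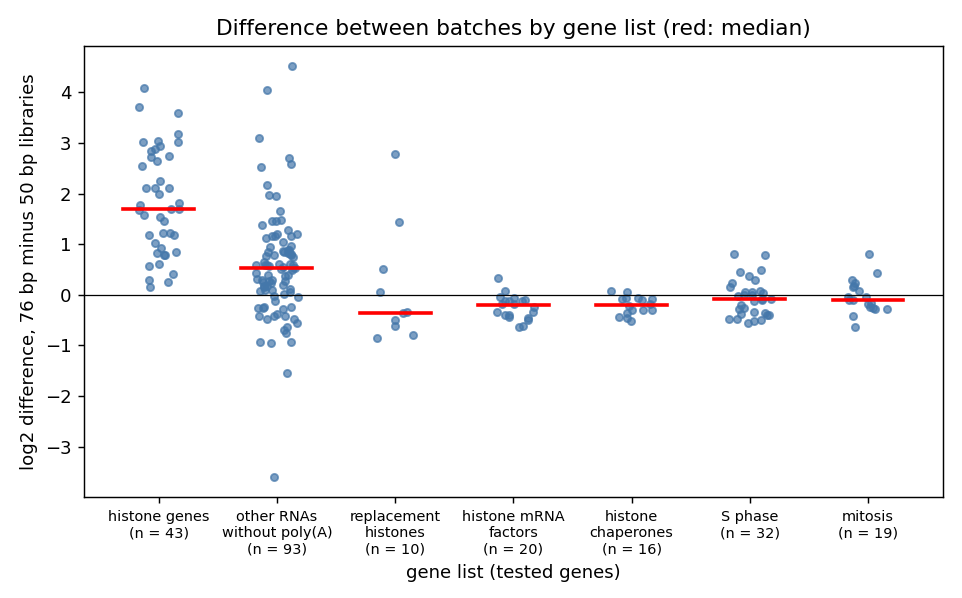
Each point is a tested gene at its log2 difference between the 76 bp and the 50 bp libraries, by gene list, with the list's median as a red line. The median is 1.70 for the histone genes and 0.52 for other RNAs without poly(A) tails, and lies between -0.35 and -0.09 for the other 5 lists, where it is above 0 for S phase and mitosis after median scaling.

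Between genotypes the same lists gave few calls. H1f0, the replacement linker histone H1.0, was at 17.21, 24.03 and 19.68 RPKM in wild type, at 16.24 and 11.92 in ZnF1-/- and at 44.19 and 39.08 in ZnF4-/-. It rose by 1.03 ± 0.20 (SE) in ZnF4-/- against wild type (limma adjusted p = 0.0498) and by 1.54 ± 0.22 (SE) against ZnF1-/- (limma adjusted p = 0.0142). Both ZnF4-/- libraries lay above all others. Summed erythroid markers (8 genes) moved the same way, at 95.1 and 116 RPKM in ZnF4-/- against 20.0 to 58.6 RPKM in the other groups, and their part in the H1f0 result was not tested. With the block H1fx rose too in ZnF4-/- against ZnF1-/-. Of the S phase genes, 0 of 32 passed in an unblocked comparison against wild type. With the block Pcna fell by 0.58 and Cdk2 by 0.47 in ZnF4-/- against wild type (limma adjusted p = 0.00689 and 0.0152), 2 of 32 genes where 8.22% of all genes passed, and 0 passed in ZnF1-/-. Cdk2 also fell by 0.55 with the block in ZnF4-/- against ZnF1-/- (limma adjusted p = 0.0114). Of the mitosis genes, the chaperones and the processing factors 0 passed in any genotype comparison, with or without the block.

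The members also share features of position and promoter. In 10 cases 2 members start within 500 bases of each other on opposite strands, each time 1 H2A and 1 H2B gene. Hist1h2ak and Hist1h2bn, 215 bases apart, both rose, by 2.87 and 4.09, and Hist1h2ae and Hist1h2bg, 175 bases apart, by 2.73 and 2.84. The pair Hist2h2ac and Hist2h2be differed, with log2 differences of 1.68 and 0.16. RefSeq promoters of build GRCm38.p6, 250 bases before to 50 after the start, matched 53 members and were searched on both strands. The octamer ATTTGCAT stood in 11 of them (20.8%), 6 H2A and 5 H2B genes, against 1.97% of 27025 genes with a promoter sequence. Those genes were scored over all their promoters, and each member over its first only. The windows of divergent pairs can overlap, so that a single site counts for both genes, as in Hist1h2ae and Hist1h2bg. CCAAT stood in 83.0% against 41.1%, with 3 of 12 H4 promoters holding it, and TATAAA in 60.4% against 15.7%. A match is a description of the letters only.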

How the data were processed

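Polyadenylated RNA of whole thymus was measured in 7 libraries. The deposited values are RPKM per gene. Per the submitters' processing notes and series text, the authors aligned reads with TopHat to mm9, used bedtools, counted exonic reads in SeqMonk against the NCBI annotation, kept genes with a read in any library and 1 transcript a gene. The sources used here do not give versions, strand, library depth or the treatment of reads with several matches.

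Here log2(RPKM + 0.5) of 10498 genes (mean over the libraries 1 RPKM or more) was fitted with limma 3.58.1 in R 4.3.3 (lmFit, eBayes with trend, 3 groups, no covariate), with two-sided p-values adjusted by Benjamini-Hochberg over all tested genes at 0.05. Adding 0.5 understates the fold of low genes. The 76 bp against 50 bp difference is the batch term of a fit with group and batch. Residual degrees of freedom were 4 (3 with batch), with 3.26 (4.96) prior ones. The replicate number marks the sequencing run type in the labels, so it pairs libraries. Deviations from group means correlated at 0.489 to 0.737 in 8 pairs of libraries of the same set and different groups. Deviations cancel within a group, so these are not 8 separate observations, and both pairs of ZnF1-/- with ZnF4-/- necessarily gave 0.658. With 3 libraries against 2 there are 10 arrangements and no permutation p below 0.1, so no such test was run. Members were named by level, by p by the gap between ZnF1-/- replicates and by a mean near 1 RPKM. Hist1h4b, Hist1h2af, Hist4h4, Jun and Dusp1 were named after their values were seen. Members and lists were chosen with earlier results of these data known. Stem-loops, signals and unique windows were read from mm9 with GENCODE vM1 by pysam 0.24.0.

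Alternatives were pseudocounts of 0.1 and 1, no filter, median scaling, quantile normalization, no trend, wild type 2A and 2B averaged, each library left out, and the replicate block.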

Additional observations from a re-analysis of the deposited data

Results flagged for a closer look

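The difference between a mutant and wild type had opposite signs in the 76 bp and the 50 bp libraries, which also differ in sex. The median over the 43 tested histone genes was 0.647 log2 units for ZnF1-/- minus wild type among the 76 bp libraries and -0.140 among the 50 bp libraries. For ZnF4-/- minus wild type it was 0.427 and -0.307. The sign of these medians held against each of the wild type libraries 2A and 2B. By gene, ZnF1-/- replicate 2 was below both of them in 23 of the 43 (53.5%, against 30.2% of all tested genes). The difference between the sets was not tested, since each holds 1 library of each mutant.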

How the results depend on the processing

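The higher level in the 76 bp libraries kept its direction in every setting run, with 37 to 41 members called, or 33 to 40 with each library left out in turn. Its median was 2.16 with a pseudocount of 0.1, 1.44 with 1 and 1.23 with no filter, and 1.54 to 2.12 with each library left out. The ratio of the sums without Hist2h4 was 4.46. For single named genes 491 results stayed on their side of the threshold, 13 gained a call and 15 lost one.

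The genotype medians turned with the library left out, from -0.55 to 1.56 for ZnF1-/- against wild type, from -0.76 to 1.38 for ZnF4-/- against wild type and from -1.30 to 1.00 between the mutants. Without the block the members called were 0 in each comparison and setting but ZnF4-/- against ZnF1-/- without ZnF1-/- replicate 2, where there was 1, Hist1h1c. With the replicate block there was 1 between the mutants and 0 in the others, and the block changed no other call in the main comparisons. Added after seeing the data, the block with median scaling gave 1 in ZnF4-/- against wild type and 1 between the mutants, and with quantile normalization 1 and 2. The block with a library left out gave 0 to 1 for ZnF1-/- and 0 to 3 for ZnF4-/- against wild type, and 0 to 7 between the mutants, where it was 7 without ZnF1-/- replicate 2, 4 without ZnF4-/- replicate 2 and 1 without wild type replicate 1. The cause of these shifts was not tested. All genes called with the block were 92, 863 and 765, against 9, 267 and 246 without it. Depth limits the members below 1 RPKM, and 2 libraries a mutant limit every genotype comparison.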
